A study of Danio rerio with 18 samples.

Results

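Wild-type zebrafish (Danio rerio) were compared here between a larval stage and an embryonic stage, gene by gene, in a whole-body RNAseq series on the transcription factor gene sox10. The libraries were chosen by their labels alone, as all wild-type libraries of the table deposited for 4 days post-fertilization (dpf) and of the table for 45 hours post-fertilization (hpf). They are 6 of the 18 labelled libraries, 3 for each stage, and all 25581 genes of the tables were included. Each library came from a separately numbered pool of whole, untreated animals, 10 to 15 wild-type larvae at 4 dpf or 10 to 25 wild-type embryos at 45 hpf. The wild-type larvae were relatives of the sox10 mutants at the same stage, and the sources used here give no strain. The mutants (sox10-/- in the labels), also 3 pools for each stage, entered only the comparison of genotypes near the end.

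Embryos and larvae differ in how they live. At the earlier stage a zebrafish still feeds on yolk, its body axis is laid down, and many of its organs hold dividing progenitors. The larva has hatched, and its eyes, gut, liver, muscles and nervous system come into use for swimming, catching prey and digesting it. In RNA from a whole body, a gene can therefore change because cells of a type become more or fewer, or because each cell makes more or less of the transcript, and these cannot be told apart.

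Values are transcripts per 1000000 transcripts (TPM), which the authors obtained with Kallisto and which are scaled for transcript length and within each library. The authors state a number of reads per sample for pools at 4 dpf. How many reads lie behind each value is unknown, and only the spread among 3 libraries gives its error. The 7 dpf table repeats the 4 dpf table in each of its 25896 lines and all 6 columns, so the later stage may be either age and is called larval below. At 7 dpf the wild-type pools would have held 12 to 30 animals. Each stage has its own table, so stage and any difference in handling between the tables cannot be told apart. Over the tested genes, log2(TPM + 1) correlated at r = 0.96 to 0.98 between larval libraries, 0.99 to 1.00 between embryo libraries and 0.71 to 0.75 between stages.

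Most transcripts differed between larvae and embryos. Testing used limma and was limited to genes that reached 1 TPM in 3 or more libraries. A called gene had an adjusted P no greater than 0.05 and differed by no less than 0.32 on the log2 scale. Of 18424 tested genes 68.4% were called, 5321 higher in larvae (28.9%) and 7290 lower (39.6%), and 5813 were not called. All 3 larval libraries lay above all 3 embryo libraries for 31.2% of the tested genes and below them for 41.9%. Changes below are log2 differences, larvae minus embryos, of log2(TPM + 1), which understates the change of genes with low TPM. The median change was -0.17 over all tested genes. A median-of-ratios rescaling of the TPM moved it to 0.01 and gave 6499 genes higher and 6470 lower, so the split between directions depends on the scaling. Small changes are to be read against that shift.

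**Figure D1:**
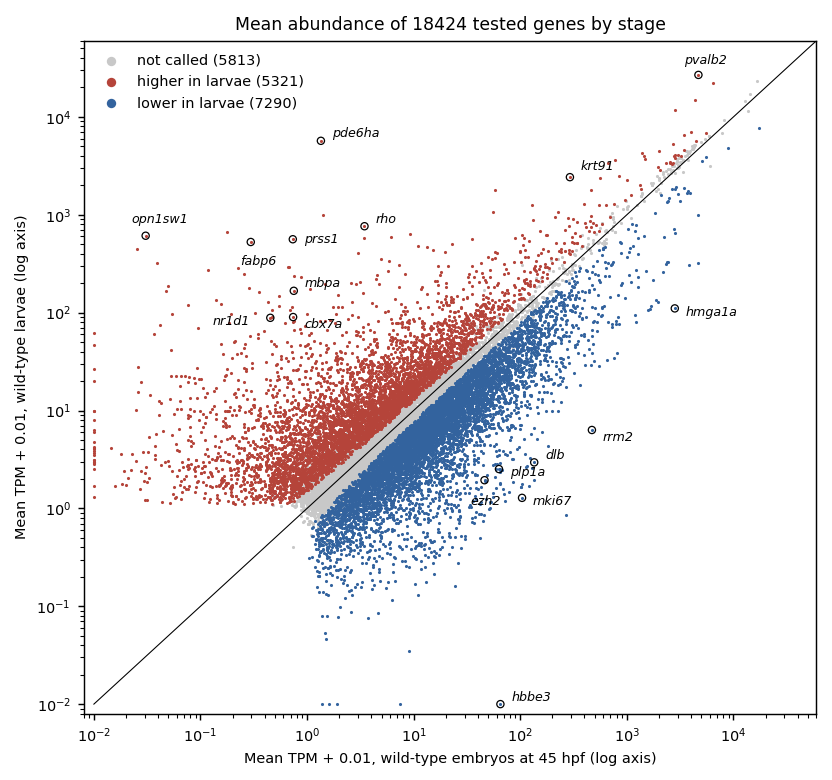
Mean TPM of each tested gene in the 3 larval libraries (vertical, log axis) and in the 3 embryo libraries at 45 hpf (horizontal, log axis), with 0.01 added so that values of 0 can be drawn. Points are coloured by the limma call, and the genes farthest from the diagonal include pde6ha above it and hbbe3, rrm2 and mki67 below it.

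Among the largest changes the order of the directions depended on the size asked for. A log2 change of at least 5 was reached by 88 genes that were higher and 14 that were lower, whereas one of at least 2 was reached by 1052 that were higher and 1089 that were lower. The steepest rise belonged to pde6ha (ENSDARG00000102558), the inhibitory subunit of the cone phosphodiesterase, with 4072, 7607 and 5409 TPM in larvae, against 3.05, 0.297 and 0.665 TPM in embryos (log2 change 11.39, standard error 0.42, adjusted P = 7e-07). After it came the ultraviolet cone opsin opn1sw1 (ENSDARG00000045677), the liver fatty acid-binding protein fabp10a (ENSDARG00000038439), the trypsin-like prss59.2, the cone transducin subunit gngt2b, the bile acid-binding protein fabp6, the trypsin prss1 and the chymotrypsinogen ctrb.1. The brain ependymin epd, the lens crystallin crybgx and the rod opsin rho followed, at log2 changes of 7.90, 7.84 and 7.68. Genes of the eye, pancreas, gut and liver thus made up 10 of these 11, epd being the other.

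Cell division led the falls. Ribonucleotide reductase subunit rrm2 (ENSDARG00000078069), which makes the building blocks of DNA, had 6.27, 6.24 and 6.43 TPM in larvae, against 440.1, 489 and 480.4 TPM in embryos (log2 change -6.01, standard error 0.096, adjusted P = 8.2e-08). The libraries of a stage lay close together and the stages far apart. Of the other 11 genes, 9 also serve the dividing cell: the importin kpna2, the proliferation antigen mki67, the mitotic kinesin kif11, cyclin ccnb1, the topoisomerase top2a, the kinase cdk1, the ubiquitin-conjugating enzyme ube2c, the reductase subunit rrm1 and the centromere protein incenp, at log2 changes between -5.55 and -5.08. The last 2 were the embryonic beta-globin hbbe3, which fell most, and the Delta ligand dlb (-5.12).

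Some genes were at the floor of one stage. Switched on was set to mean called higher, under 0.5 TPM in every embryo library and at least 5 TPM in every larval library, and 149 genes met it (0.809% of those tested). The converse, switched off, was met by 48 genes (0.261%). Among the genes switched on were 14 of the phototransduction list, 11 digestive enzymes of the pancreas, 5 of the cytochrome and conjugating enzymes, 4 enzymes of the liver and gut, 3 of enterocytes and 3 lens crystallins. Others belonged to none of these lists, such as cyp24a1, which degrades vitamin D (29.8, 39.8 and 74.7 TPM in larvae, against 0.109, 0.437 and 0.205 TPM in embryos), npas4a, an activity-dependent transcription factor of neurons (4.34), and rln3a, the neuropeptide relaxin 3 (4.21). These 3 were picked out after their values had been seen.

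The genes switched off were mostly outside the lists, with 6 of 48 in a list. Besides hbbe3 they included e2f2 and e2f8, transcription factors of the cell cycle, the checkpoint kinase chek1, the spindle gene aspm, the replication genes cdc7, mcm10 and pole, the mitotic separase espl1 and the stem cell RNA-binding gene lin28aa, which were picked out after their values had been seen. For e2f2 the values were 0.475, 0.191 and 0.128 TPM in larvae, against 24.5, 25.7 and 27.2 TPM in embryos (log2 change -4.42, standard error 0.15, adjusted P = 5.3e-07). Outside the lists also stood hes2.1 (log2 change -4.46), gdf11 (-3.37) and olig4 (-2.86), picked in the same way. The counts of genes switched on and off rest on where the floor is put. At 0.1 TPM in place of 0.5, 30 genes were switched on and 2 switched off.

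The remaining 7157 genes of the table were not tested, since they stayed under 1 TPM in too many libraries, and 789 of them were listed at 0 in all 6. Gene lists for 56 pathways, organs and cell types held 2114 different genes, of which 1795 were tested. Of the 319 listed genes under the filter, 105 had every larval library above every embryo library (32.9%) and 37 the reverse (11.6%), compared with 22.6% and 10.7% of all 7157 genes under it. Genes that passed the filter through only 1 stage had to differ, so counts over tested members describe those members alone. Each list count below is to be read against the 28.9% higher and 39.6% lower of all tested genes. The lists and their members were chosen with earlier results of these data known.

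**Figure D2:**
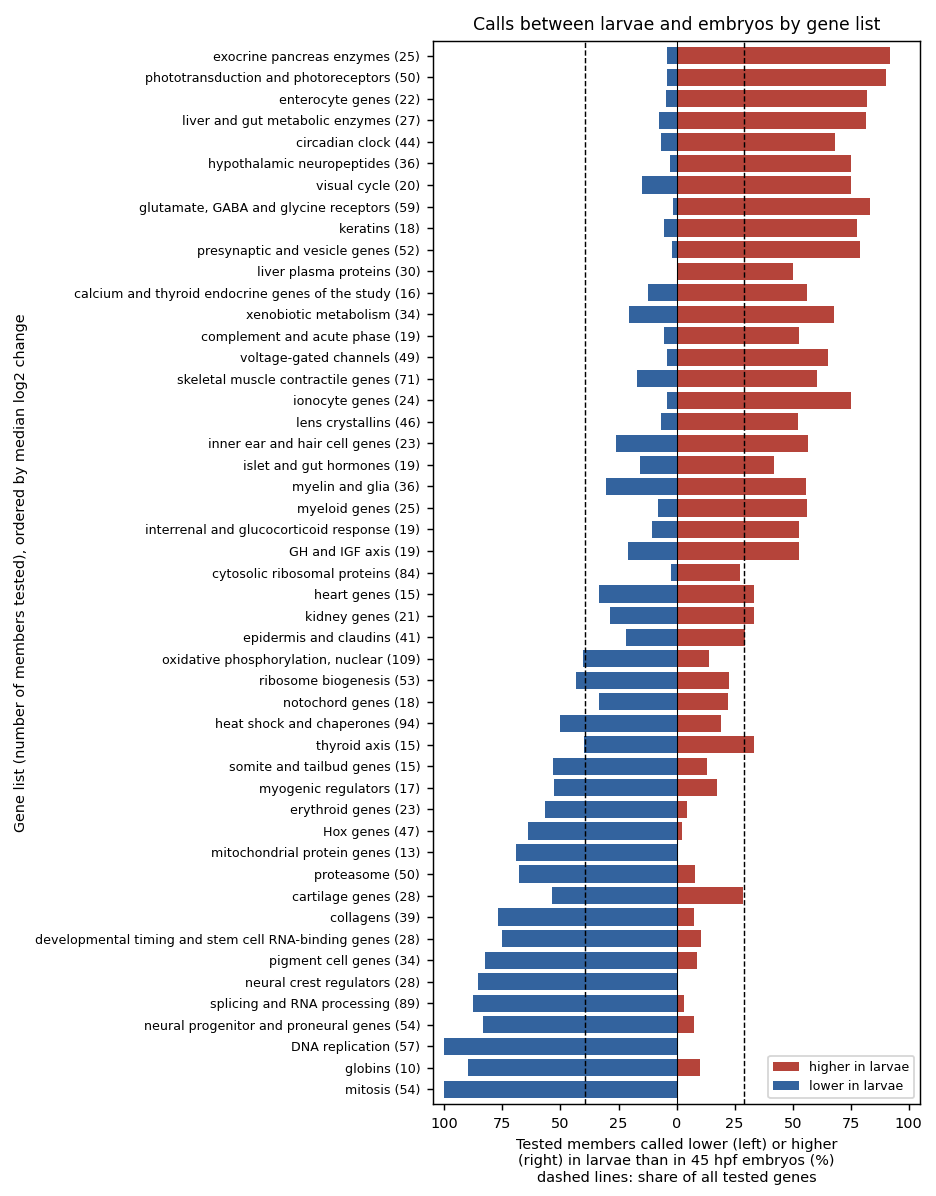
Share of the tested members of each gene list that were called higher in larvae (right) or lower (left) than in embryos at 45 hpf, for lists with at least 10 tested members, ordered by the median log2 change. Dashed lines mark the shares over all tested genes, 28.9% higher and 39.6% lower.

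In the eye, most genes of light detection rose, whereas none of the transcriptional regulators described here was called higher. Photoreceptors turn light into a change of membrane potential through an opsin, a transducin, a phosphodiesterase and a cyclic nucleotide-gated channel. Of 50 tested members of the phototransduction list, 45 were higher in larvae and 2 lower, with a median log2 change of 3.10. The summed TPM of the list was 10292 to 13027 in larvae and 234 to 399 in embryos. The libraries of the stages lay far apart.

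Each opsin class that was tested rose apart from the pineal opsin. The ultraviolet opsin opn1sw1 had 823, 436 and 573 TPM in larvae, against 0, 0.0204 and 0.0414 TPM in embryos. The rod opsin rho had 663, 840.3 and 787 TPM in larvae, against 0.463, 4.10 and 5.78 TPM in embryos (log2 change 7.68, standard error 0.51, adjusted P = 8.3e-06). Larval values of both were far above all embryo values, and embryo values of rho were uneven, with embryo library 1 lowest. The blue opsin opn1sw2 (6.31), the green opsins opn1mw1 (7.24) and opn1mw2 (3.12) and the red opsin opn1lw2 (5.54) rose too. The other green opsins opn1mw3 and opn1mw4 and the red opsin opn1lw1 stayed under the filter, at means of at most 0.143 TPM in larvae and 0.0543 TPM in embryos. Opsins in tandem share much sequence, so the division of TPM between neighbouring copies is uncertain. The pineal opsin exorh was not called (log2 change -0.37, standard error 0.22, adjusted P = 0.18).

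Downstream of the opsins the pattern held for rods and cones. Among cone genes, the transducin gnat2 (7.06), the phosphodiesterase pde6c (6.21), the arrestin arr3a (6.66) and the opsin kinase grk7a (5.34) rose. Among rod genes, gnat1 (4.41), pde6a (2.87), the arrestin sagb (5.51) and the channel subunit cngb1a (2.95) rose. Mean TPM of the larval libraries was 238 ± 72.4 for gnat2 and 43.7 ± 11.8 for gnat1, against 0.738 ± 0.154 and 1.06 ± 0.309 in embryos (SD, n = 3 each). The 2 members that fell were the beta subunit gnb1b (-1.11), which is not limited to photoreceptors, and nr2e3.

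Of the 3 regulators described here, nr2e3 was called lower, and crx and nrl were not called. The homeobox gene crx, which drives photoreceptor genes, had 62.3, 67.4 and 55.7 TPM in larvae, against 32.4, 101 and 110.0 TPM in embryos (log2 change -0.21, standard error 0.42, adjusted P = 0.67). Its groups overlapped, with embryo library 1 below every larval library and the other 2 above them. Without embryo library 1 crx was called lower in larvae, at a log2 change of -0.77. The rod determinant nr2e3 had 6.07, 4.83 and 3.83 TPM in larvae, against 14.1, 30.7 and 34.2 TPM in embryos, a call for a fall (log2 change -2.13, standard error 0.32, adjusted P = 0.0006). The rod factor nrl was not called (log2 change 0.11, standard error 0.27, adjusted P = 0.74). Embryo library 1 was the lowest of its stage for each of these 3 genes, as for 71.4% of all tested genes.

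Recycling of the chromophore followed with less uniformity. Of 20 tested genes of the visual cycle, 15 were higher and 3 lower (median log2 change 1.49). The interphotoreceptor carrier rbp3 (6.97) rose most, and rbp4l had the highest TPM, with 662, 636 and 619 TPM in larvae, against 8.65, 9.81 and 9.44 TPM in embryos. The isomerase rpe65a rose (2.65), whereas rpe65b (-1.04) and the retinol acyltransferases lrata (-1.33) and lratb.1 (-2.01) fell.

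Lens crystallins were abundant at both stages. Their summed TPM was 18067 to 27009 in larvae and 9311 to 18645 in embryos, ranges that overlap. Of 46 tested, 24 were higher and 3 lower. After median-of-ratios rescaling 35 were higher and 3 lower. The most abundant, crybb1, was not called (1826, 1837 and 2385 TPM in larvae, against 1247, 2137 and 1732 TPM in embryos). Certain members began only late, as crybgx did, with 218, 248 and 386 TPM in larvae, against 0.0545, 0.177 and 0.413 TPM in embryos. Most gamma M crystallins are near-identical tandem copies, so their single values are uncertain.

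The digestive tract showed the other large set of late genes. Pancreatic acinar cells secrete proteases, lipases and amylase, and 23 of 25 tested genes of this list were higher in larvae, with a median log2 change of 4.25. Trypsin prss1 had 609, 327 and 750.2 TPM in larvae, against 0.611, 0.709 and 0.854 TPM in embryos (log2 change 8.27, standard error 0.28, adjusted P = 5.3e-07). The elastase cela1.6 (6.99), the amylase amy2a (5.84), the carboxypeptidase cpa5 (5.11) and the lipase cel.1 (4.27) rose as well. The amylase copy amy2al1 was not called. Their regulator ptf1a, a transcription factor that specifies acinar cells and also cells of the retina and hindbrain, fell, with 2.73, 2.42 and 1.35 TPM in larvae, against 22.9, 28.3 and 28.9 TPM in embryos (log2 change -3.15, standard error 0.20, adjusted P = 6.8e-06).

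Most enterocyte and metabolic enzyme genes rose too. Of 22 tested enterocyte genes, 18 were higher and 1 lower. The ileal bile acid-binding protein fabp6 had 521, 578 and 482 TPM in larvae, against 0.366, 0.199 and 0.295 TPM in embryos. The chitinase chia.2 (5.52) and the fatty acid-binding protein fabp2 (3.52) were among the rest, and the apolipoprotein apoa4a fell (-1.16). Of 27 tested metabolic enzymes of liver and gut, 22 were higher and 2 lower. The gluconeogenic enzyme pck1 rose, with 29.9, 58.8 and 63.1 TPM in larvae, against 0.643, 0.805 and 0.454 TPM in embryos. The 2 falls were cps1 (-2.03), which feeds ammonia into the urea cycle, and the sulfotransferase sult1st1 (-0.99).

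Plasma proteins of the liver were less uniform, and the larval libraries differed among themselves. Of 30 tested, 15 were higher, 0 lower and 15 not called (limma). The list includes fabp10a, the liver fatty acid-binding protein, which is not itself a plasma protein. It had 490.3, 197 and 1332 TPM in larvae, against 0, 0.126 and 0.375 TPM in embryos (log2 change 8.77, standard error 0.59, adjusted P = 9.3e-06). Every larval value of fabp10a lay far above every embryo value, but the larval values themselves spanned a wide range. The retinol carrier rbp4 (4.01) and the thyroid hormone carrier ttr (3.92) rose. The apolipoprotein apoa1b was not called, at 245, 67.3 and 605 TPM in larvae and 118, 141 and 53.8 TPM in embryos. Larval library 2 was the lowest of its stage for 26 of the 30 genes and library 3 the highest for 29, compared with 57.5% and 41.2% of all tested genes. Without larval library 2, 27 of the 30 were higher and apoa1b was among them (1.99), and without larval library 1, 9 were higher. Enzymes that handle foreign compounds also rose more often than they fell, 23 against 7 of 34. cyp3a65, a cytochrome of gut and liver (5.53), led them, and cyp1b1, expressed in the eye and brain, fell most (-2.84).

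Hormones of islet and gut gave a mixed picture. Of 19 tested, 8 were higher and 3 lower. Somatostatin sst1.1 (2.26), cholecystokinin ccka (1.78) and the amyloid polypeptide iapp (1.97) rose. Insulin, ins, was not called, with 1.71, 3.53 and 7.54 TPM in larvae and 7.84, 4.57 and 1.79 TPM in embryos (log2 change -0.13, standard error 0.51, adjusted P = 0.83).

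In the nervous system, genes of progenitors fell and genes of the working synapse rose. Notch signalling keeps neural progenitors dividing, and Delta ligands, her genes and proneural factors mark cells passing through that choice. Of 54 tested members of the progenitor list, 45 were lower in larvae and 4 higher, with a median log2 change of -2.21. The ligand dlb had 3.76, 2.52 and 2.54 TPM in larvae, against 140.3, 133 and 132 TPM in embryos (log2 change -5.12, standard error 0.14, adjusted P = 3.7e-07). The receptor notch1a had 5.41, 3.94 and 6.05 TPM in larvae, against 102, 118 and 104 TPM in embryos. For both, every larval library was far below every embryo library. The ligands dla (-3.76) and dld (-3.84), the targets her4.1 (-2.45) and her12 (-3.54), and the proneural genes neurog1 (-4.10), ascl1b (-3.42) and atoh7 (-3.85) fell alongside. Copies of her4 lie in tandem, and their single values are uncertain.

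The radial glial gene fabp7a, the most abundant of the list in embryos, had 385, 325 and 273 TPM in larvae, against 1920.0, 2594 and 2556 TPM in embryos. The SoxC gene sox11b (-4.22) and elavl3 (-2.14), a marker of newly born neurons, fell too. Members that rose were neurod6a (2.13), a factor of differentiating neurons, rx3 (0.90), mdkb (0.44) and zic2a (0.39). Of these, mdkb had 399.6 ± 66.3 TPM in larvae and 293 ± 34.0 TPM in embryos (SD, n = 3 each), and its call was lost without larval library 1 or 2 or embryo library 1 or 2, at log2 changes of 0.33 to 0.48.

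Transmission genes moved the other way. Of 52 tested presynaptic genes, 41 were higher and 1 lower (median log2 change 1.16). The synaptotagmin syt5b had 144, 141 and 132 TPM in larvae, against 2.73, 8.90 and 8.47 TPM in embryos (log2 change 4.31, standard error 0.35, adjusted P = 2.2e-05). Embryo library 1 was the lowest of its stage for this gene, as for 42 of the 52 (80.8%) and for 71.4% of all tested genes. The complexins cplx3b (3.35) and cplx4a (3.26), which are known from ribbon synapses of the retina, and the membrane fusion genes snap25a (1.95) and snap25b (2.42) rose. So did gad1b (2.66), which makes GABA, and the glutamate transporter of synaptic vesicles slc17a7a (2.53). The related transporters slc17a6a and slc17a6b, and syn1, were not called. cplx2b was the single presynaptic gene called lower (-0.37). Its call was lost in most alternatives, median-of-ratios rescaling (-0.16) and leaving out larval library 2 (-0.24) among them.

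Receptor genes were mostly higher as well. Of 59 tested subunits of glutamate, GABA and glycine receptors, 49 were higher and 1 lower (median log2 change 1.35). The NMDA receptor subunit grin1b had 177, 221 and 149 TPM in larvae, against 6.14, 7.77 and 7.78 TPM in embryos (log2 change 4.47, standard error 0.17, adjusted P = 7.5e-07). The retinal GABA receptor subunit gabrr1 (4.71) and glrba (2.78), the beta subunit of the glycine receptor, were switched on. The alpha subunit glra4a alone was called lower (-1.27). Of 49 tested voltage-gated channel genes, 32 were higher and 2 lower.

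Glial genes changed in both directions. Of 36 tested genes of myelin and glia, 20 were higher in larvae and 11 lower. The myelin protein gene mbpa had 200.4, 123 and 177 TPM in larvae, against 0.685, 0.567 and 0.969 TPM in embryos (log2 change 6.57, standard error 0.20, adjusted P = 3.7e-07). The glycoprotein mag (3.28), the peripheral myelin gene mpz (2.68) and the claudin cldnk (2.36) rose, as did glula (4.39), the astroglial glutamine synthetase, whereas the myelin proteolipid gene plp1a fell (-4.20). Lower in larvae were olig2 (-2.45), nkx2.2a (-1.59) and pou3f1 (-2.90), transcription factors of glial precursors and other neural cells. sox10 itself, required for oligodendrocytes and Schwann cells, had 7.33, 5.25 and 6.02 TPM in larvae, against 9.47, 14.0 and 11.7 TPM in embryos (log2 change -0.82, standard error 0.18, adjusted P = 0.0042).

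Neuropeptides, which carry slower signals, rose in 27 of 36 tested genes, and 1 fell. Neuropeptide Y, npy, an appetite peptide, had 22.4, 22.3 and 18.3 TPM in larvae, against 0.515, 0.758 and 0.626 TPM in embryos (log2 change 3.75, standard error 0.14, adjusted P = 7.6e-07). The appetite peptide agrp (1.89), oxytocin oxt (3.06) and the stress hormone gene crhb (2.94) rose as well, and ghrh, which drives growth hormone, fell at low TPM (0.417, 0.185 and 0.222 TPM in larvae, against 1.99, 1.61 and 1.93 TPM in embryos). Of 9 tested olfactory genes 6 were higher and 0 lower (limma), led by the olfactory marker protein ompa (3.57). In the ear and lateral line, 13 of 23 tested genes were higher and 6 lower. Hair cell genes such as s100t (1.82) and otofa (1.74) rose, while the otolith and tectorial matrix genes otomp (-2.08) and tectb (-1.57) fell.

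**Figure D3:**
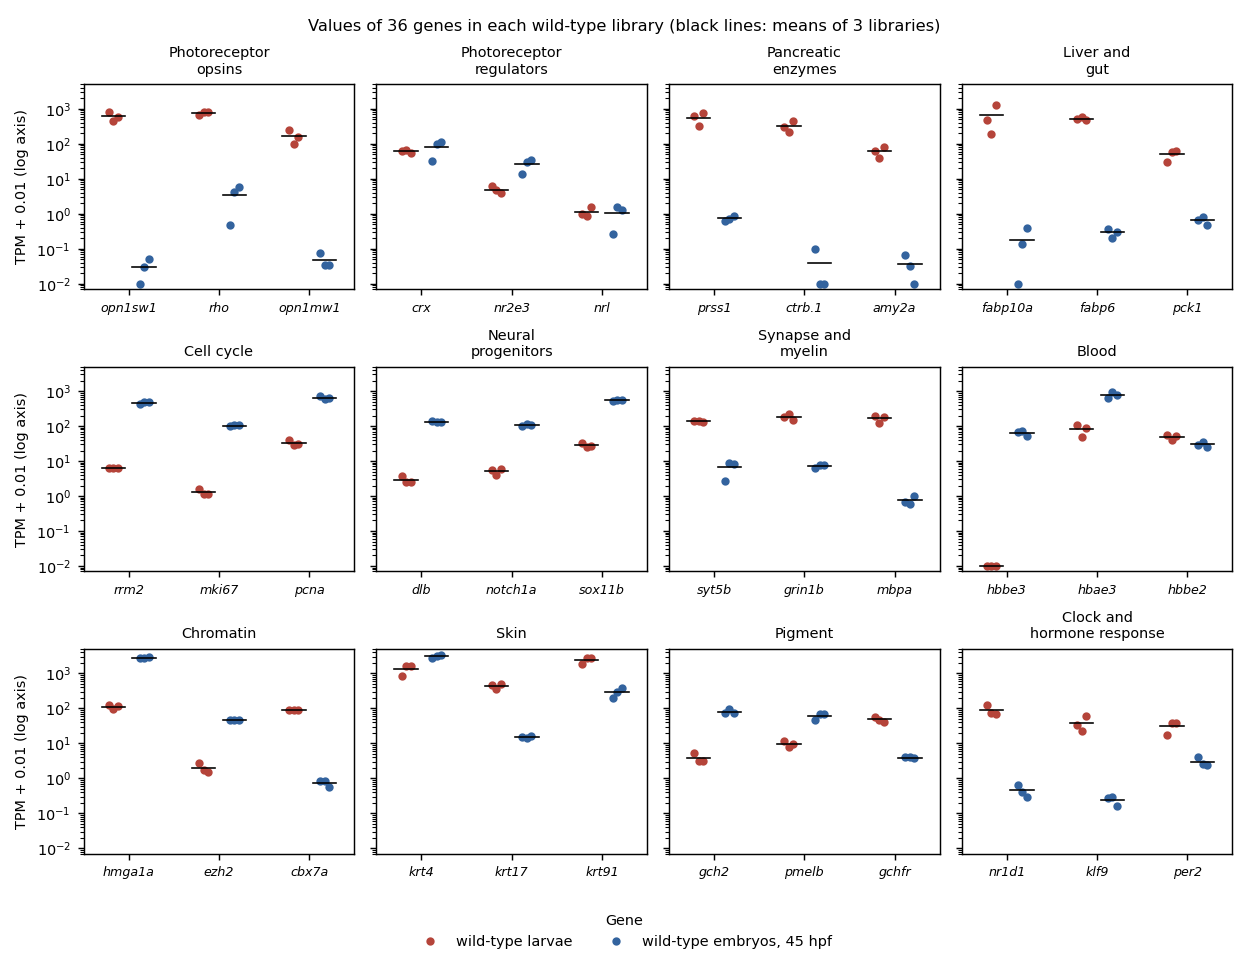
TPM plus 0.01 (vertical, log axis) of 36 genes in each of the 3 wild-type larval libraries (red, left of each pair) and the 3 wild-type embryo libraries at 45 hpf (blue, right), with black lines at the means. The opsins, enzymes, synaptic and clock genes lie higher in larvae, and the cell cycle, progenitor and most globin genes lie higher in embryos.

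The listed cell division genes fell without exception. All 57 tested genes of DNA replication and all 54 of mitosis were called lower in larvae, compared with 39.6% of all tested genes. Their median log2 changes were -3.09 and -4.08. These lists were chosen with earlier results of these data known, so the counts describe their members alone. The sliding clamp pcna had 40.1, 28.8 and 30.3 TPM in larvae, against 719, 594 and 625 TPM in embryos (log2 change -4.26, standard error 0.15, adjusted P = 5.8e-07). The cyclin-dependent kinase cdk1, which starts mitosis, had 1.94, 1.53 and 1.79 TPM in larvae, against 96.1, 105 and 108 TPM in embryos. The summed TPM of the mitosis list was 74.1 to 94.9 in larvae and 2376 to 2644 in embryos. The smallest falls among replication genes were those of timeless (-0.93), which also has a part in the clock of other animals, and rfc5 (-1.32). The helicase gene mcm7 kept the highest larval level of the list, 149, 105 and 99.9 TPM, against 301, 353 and 373 TPM in embryos. The counts of 57 and 54 were the same after median-of-ratios rescaling and quantile normalization.

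Genes that set developmental time and chromatin state were mostly lower. Of 28 tested, 21 were lower and 3 higher. The architectural chromatin protein hmga1a had 123, 94.7 and 114 TPM in larvae, against 2761, 2703 and 2985 TPM in embryos (log2 change -4.67, standard error 0.12, adjusted P = 3e-07). Its paralogue hmga1b was not called (log2 change -0.13, standard error 0.14, adjusted P = 0.41). The methyltransferase of Polycomb repression, ezh2 (-4.03), the DNA methyltransferase dnmt3ba (-3.27), the RNA-binding lin28aa (-2.61) and the neural stem cell gene sox3 (-2.99) fell. A Polycomb reader went the opposite way, since cbx7a had 90.5, 90.7 and 89.1 TPM in larvae, against 0.815, 0.812 and 0.562 TPM in embryos (log2 change 5.72, standard error 0.12, adjusted P = 1.6e-07), whereas cbx2 fell (-0.97).

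Somite and tailbud genes were largely at low TPM in both stages, and 13 of 28 were under the filter. The Notch modifier lfng (-2.85) and hes6 (-3.58), which are also neural genes, fell most of the 15 tested. Hox genes give cells their position along the body, with higher paralogue numbers acting farther back. In groups 1 to 9, 28 of 30 tested genes were lower in larvae and 0 higher, with a median log2 change of -1.27 (limma). In groups 10 to 13, 2 of 17 were lower and 1 higher, with a median of 0.04. The largest fall was that of hoxc4a, with 11.9, 8.10 and 14.5 TPM in larvae, against 51.4, 59.4 and 60.2 TPM in embryos. hoxc10a, by contrast, had 9.70, 6.39 and 7.24 TPM in larvae, against 6.92, 6.28 and 9.09 TPM in embryos, and was not called. After median-of-ratios rescaling 26 of 30 and 2 of 17 were lower. The difference between the 2 sets of groups was not tested.

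Globin genes mostly fell. Of 10 tested globin genes, 9 were lower in larvae and 1 higher. hbbe3 had 0, 0 and 0 TPM in larvae, against 69.1, 72.6 and 53.6 TPM in embryos, so that it was listed at 0 in every larval library. hbae3 had 107, 49.2 and 88.0 TPM in larvae, against 647, 921 and 779.6 TPM in embryos (log2 change -3.30, standard error 0.28, adjusted P = 2.8e-05). hbbe2 was the exception, with 56.3, 40.3 and 51.6 TPM in larvae, against 28.5, 35.1 and 26.0 TPM in embryos (log2 change 0.70, standard error 0.16, adjusted P = 0.0059). The adult genes hbaa1, hbaa2, hbba1 and hbba2 were under the filter at both stages. Globin copies resemble each other closely, so the share of each is uncertain. The sum over the family was 275 to 568 TPM in larvae and 3273 to 4817 TPM in embryos.

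Other red cell genes fell in part. Of 23 tested, 13 were lower and 1 higher. The heme synthesis gene alas2 (-2.20), the band 3 anion exchanger slc4a1a (-2.63) and the regulator gata1a (-1.41) fell, and cahz, the carbonic anhydrase of red cells, was not called (23.0, 21.6 and 17.7 TPM in larvae and 17.7, 24.2 and 18.5 TPM in embryos). Among myeloid genes 14 of 25 were higher and 2 lower. The 3 largest rises were those of the galectin lgals2b (7.10), cpa5, which is also on the pancreas list, and cebpb (3.37), none of them limited to myeloid cells. Lysozyme lyz fell, with 16.8, 9.12 and 16.7 TPM in larvae, against 32.4, 28.6 and 25.2 TPM in embryos, and neutrophil mpx was under the filter. Of 25 lymphoid genes 18 were under the filter, rag1 and the thymus gene foxn1 among them, at means under 1 TPM in both stages. In the list of complement and acute phase proteins 10 of 19 were higher and 1 lower, led by the pentraxin crp3 (3.41). Without embryo library 1, 6 of them were higher.

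Contractile genes of skeletal muscle rose more often than they fell. Of 71 tested contractile genes, 43 were higher and 12 lower, and the list summed to 103382 to 147813 TPM in larvae and 40094 to 47956 TPM in embryos. The calcium buffer pvalb2 (ENSDARG00000002768) was the most abundant gene of larvae, with 27507, 21607 and 31424 TPM in larvae, against 4500.3, 4895 and 4679.9 TPM in embryos (log2 change 2.50, standard error 0.16, adjusted P = 6.4e-06). Larval library 2 was the lowest of its stage for 61 of the 71 genes (85.9%), compared with 57.5% of all tested genes. The calcium pump atp2a1l had 1805, 1527 and 2086 TPM in larvae, against 59.5, 56.7 and 57.5 TPM in embryos, while its relative atp2a1 was not called, with 1282, 683 and 1709 TPM in larvae and 969, 1049 and 1076 TPM in embryos. Without larval library 2 atp2a1 was called higher, at 0.52.

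Some other related genes of muscle also differed in their change. The troponin T gene tnnt3b rose (1.44) and tnnt3a fell, with 107, 75.5 and 88.9 TPM in larvae, against 735, 805 and 963 TPM in embryos. The actin actc1b rose (1.75) from 3681, 4607 and 4855 TPM in embryos. The related acta1b, lower than actc1b at both stages, fell (-3.82). It had 158, 89.7 and 155 TPM in larvae, against 1613, 1827 and 2131 TPM in embryos. The parvalbumin pvalb3 (-1.64) and the calsequestrin casq2 (-2.88) fell. trim63a, a ubiquitin ligase of muscle breakdown, rose (3.75). Among regulators, myf6 rose (2.22), myod1 fell (-0.70), and myog was not called (-0.29). Of 15 tested heart genes 5 were higher and 5 lower (33.3% each), against 28.9% and 39.6% of all tested genes. The ventricular myosin gene myh7 rose (2.32), the transcription factor tbx20 fell (-1.66), and the light chain myl7, found throughout the early heart, was not called, with 13.1, 7.75 and 13.6 TPM in larvae and 10.5, 11.4 and 3.13 TPM in embryos.

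Most keratins of the skin were higher in larvae, and the most abundant embryonic one was lower. Of 18 tested keratin genes, 14 were higher and 1 lower. krt4, a keratin of the surface layer, had 839, 1661 and 1615 TPM in larvae, against 2708, 3213 and 3445 TPM in embryos (log2 change -1.24, standard error 0.26, adjusted P = 0.0036). krt91 had 1832, 2671 and 2763 TPM in larvae, against 194, 297 and 386 TPM in embryos (log2 change 3.08, standard error 0.27, adjusted P = 3.2e-05), and krt17 rose more steeply (4.75). Of 41 genes of epidermal junctions and secretion, 12 were higher (29.3%), 9 lower (22%) and 20 not called. Over all tested genes the shares were 28.9% higher and 39.6% lower. Genes of ionocytes, the skin cells that take up salts and excrete acid and ammonia, were mostly higher in larvae. Of 24 tested, 18 were higher and 1 lower, and the other 14 of 38 listed were under the filter. The ammonia channel rhcga had 79.1, 157 and 146 TPM in larvae, against 0.646, 0.263 and 0.347 TPM in embryos (log2 change 6.45, standard error 0.26, adjusted P = 1e-06). Related channels rhcgl1 (5.14) and rhbg (3.46) and the sodium pump subunit atp1a1a.4 (2.69) rose, and foxi1, an early ionocyte and ear factor, fell (-1.25). The calcium channel trpv6 was under the filter, with 0.556, 0.178 and 0.378 TPM in larvae and 0.182, 0.114 and 0.0728 TPM in embryos (exact permutation test, p = 0.2, where 0.1 is the smallest that 3 against 3 can give).

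Most collagen genes fell. Of 39 tested collagen genes, 30 were lower in larvae and 3 higher (median log2 change -1.14). The bone and skin collagen col1a1a had 44.6, 27.3 and 39.2 TPM in larvae, against 149.7, 183 and 191 TPM in embryos (log2 change -2.23, standard error 0.19, adjusted P = 3e-05). The cartilage and notochord collagen col2a1a (-2.23) fell too, and col17a1a (1.00), which anchors epidermis, rose. Of 28 tested cartilage genes, 8 were higher and 15 lower. The link protein hapln1a fell, with 5.60, 3.29 and 3.85 TPM in larvae, against 95.8, 101 and 93.7 TPM in embryos (log2 change -4.24, standard error 0.17, adjusted P = 8.7e-07). Matrilin matn1 rose, with 17.4, 13.2 and 10.5 TPM in larvae, against 0.224, 0.293 and 0.105 TPM in embryos (log2 change 3.58, standard error 0.19, adjusted P = 3e-06). sox9b, a regulator of chondrocytes and crest, fell (-3.35). sox9a was not called, with 13.3, 5.71 and 16.9 TPM in larvae and 15.8, 34.2 and 22.0 TPM in embryos, but it was called lower without larval library 3 or embryo library 1. Collagen chaperones serpinh1b (-2.70) and serpinh1a (-2.55) fell with the collagens.

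Bone genes of the study were mostly low. Of its 15 osteoblast markers 8 were tested, with 2 higher and 5 lower, a list taken from the study and so no independent evidence of a direction. The markers sp7, runx2a and runx2b, the regulators of osteoblasts, were under the filter. spp1 (1.26) and phex (0.97) rose, and sparc fell (-0.55). Of 29 calcium and thyroid hormone genes that the study picked in the same way, 16 were tested, with 9 higher and 2 lower. Parathyroid hormone pth1b had 18.4, 16.1 and 28.8 TPM in larvae, against 0.291, 0.949 and 0.379 TPM in embryos (log2 change 3.82, standard error 0.25, adjusted P = 8e-06). Stanniocalcin stc1l, which lowers calcium uptake, had 10.5, 5.68 and 11.9 TPM in larvae, against 0.672, 0.254 and 0.388 TPM in embryos (log2 change 2.80, standard error 0.26, adjusted P = 4.5e-05). Calcitonin calca rose (1.75). Thyroglobulin tg was under the filter at both stages, and the thyroid transcription factors pax8 (-1.76) and nkx2.4b (-2.74), which are also neural or renal genes, fell.

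Of 18 tested notochord genes, 4 were higher (22.2%) and 6 lower (33.3%), against 28.9% and 39.6% of all tested genes. The 2 prostaglandin D synthase genes ptgdsb.2 (6.25) and ptgdsb.1 (5.32) rose most and are not limited to notochord. shha (-0.77) and shhb (-1.60), which pattern tissues around it, fell. Hatching gland cells dissolve the egg envelope and then die. Of 7 tested genes of their list 3 were higher in larvae and 3 lower. The list summed to 245 to 302 TPM in larvae and 184 to 205 TPM in embryos. The hatching enzyme he1.1 averaged 0.0246 ± 0.0426 TPM in larvae, against 9.09 ± 7.93 TPM in embryos (SD, n = 3 each, log2 change -2.85, standard error 0.66, adjusted P = 0.0057). Under the filter and so not tested by limma, he1.2 was listed at 0 in every larval library, against 12.3, 4.55 and 0.346 TPM in embryos. Embryo libraries differed widely for both, with embryo library 1 highest and library 3 lowest. The cathepsin ctsl.1 of the same list rose, with 78.4, 152 and 111 TPM in larvae, against 0.323, 0.801 and 0.993 TPM in embryos.

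Neural crest and pigment genes were lower in larvae. The crest is a migratory population that gives rise to pigment cells, peripheral neurons and glia and much of the facial skeleton. Of 28 tested crest regulators, 24 were lower and 0 higher (limma, median log2 change -1.19). crestin, a marker of early crest, had 1.51, 1.73 and 1.40 TPM in larvae, against 8.86, 11.1 and 10.8 TPM in embryos (log2 change -2.14, standard error 0.14, adjusted P = 8.4e-06). foxd3 (-1.19) and tfap2a (-0.73), which specify crest, fell as well.

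Pigment cell genes followed in each class. Of 34 tested, 28 were lower and 3 higher. The xanthophore enzyme gch2 had 5.16, 3.02 and 3.17 TPM in larvae, against 75.0, 94.5 and 71.9 TPM in embryos (log2 change -4.11, standard error 0.20, adjusted P = 1.8e-06). The iridophore purine enzyme pnp4a had 3.26, 2.12 and 2.69 TPM in larvae, against 21.3, 28.2 and 26.4 TPM in embryos. The melanophore genes mitfa (-2.06), dct (-1.81) and tyr (-1.85) fell. Among melanosome matrix genes pmelb fell by 2.58 and pmela by 0.81 on the log2 scale. Higher were gchfr, the regulator of the first enzyme of pterin synthesis (3.31), the melanosome transport gene mlpha and the transporter gene slc45a2 (1.15).

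Clock genes were mostly higher in larvae. Zebrafish tissues hold oscillators that light can set, in which Clock and Bmal proteins drive per, cry and nr1d genes that repress them in turn. Of 44 tested clock genes, 30 were higher and 3 lower (median log2 change 1.71). The repressor nr1d1 had 123, 75.7 and 67.3 TPM in larvae, against 0.640, 0.405 and 0.281 TPM in embryos (log2 change 5.91, standard error 0.23, adjusted P = 8.4e-07). The light-responsive per2 had 17.6, 39.1 and 39.2 TPM in larvae, against 4.16, 2.56 and 2.33 TPM in embryos. The output factors tefb (3.38) and dbpb (3.61) and the repressors cry1a (3.90) and bhlhe41 (3.92) rose. Of the activators, bmal1a and clocka were not called, and bmal2 fell (-2.53). clockb was called higher at 0.45, but not without larval library 1 (0.46) or 3 (0.31) or embryo library 1 (0.38) or 3 (0.42). The hour at which each stage was collected is not given in the sources used here, so stage and time of day cannot be told apart for these genes.

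Genes of the glucocorticoid response changed less uniformly. klf9, which responds to both glucocorticoid and thyroid hormone, had 33.2, 22.8 and 59.3 TPM in larvae, against 0.259, 0.280 and 0.155 TPM in embryos (log2 change 4.90, standard error 0.31, adjusted P = 6.5e-06). fkbp5 (3.50) and per1a (3.02) rose and tsc22d3 was not called. Since per1a is also on the clock list and the hour of collection is not given, stage and time of day cannot be told apart here either. Of 19 tested genes of the interrenal list, 10 were higher and 2 lower. In the growth hormone and insulin-like growth factor axis 10 of 19 were higher and 4 lower. Its largest rise was that of igfbp1b, a binding protein induced by fasting and low oxygen, with 46.7, 35.6 and 67.7 TPM in larvae, against 0.252, 0.213 and 0.123 TPM in embryos (log2 change 5.37, standard error 0.22, adjusted P = 1.1e-06). irs2a (3.41), an adaptor of the insulin receptor, followed. Of 8 tested pituitary genes 0 were higher and 5 lower (limma), and after rescaling 1 was higher and 4 lower.

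Housekeeping sets parted from each other. Of 89 tested genes of splicing and RNA processing, 78 were lower in larvae and 3 higher (median log2 change -1.59). The ribonucleoprotein hnrnpa1a had 96.9, 83.2 and 106 TPM in larvae, against 1133, 1312 and 1148 TPM in embryos. The exceptions were srsf7b (2.08), sf3b1 (1.27) and hnrnph3 (0.45), the last of which was lost without larval library 1 or 2 or embryo library 1 or 3, at 0.36 to 0.47. Of 50 tested proteasome genes, 34 were lower and 4 higher, and the largest rises were the activators psme4a (3.39) and psme1 (2.97). Most genes of cytosolic ribosomal proteins were not called, with 23 of 84 higher, 2 lower and a median log2 change of 0.24. The count of higher genes moved with single libraries, being 35 without larval library 3 and 10 without larval library 1 or embryo library 2.

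Of 94 tested chaperone genes, 47 were lower (50%) and 18 higher (19.1%), against 39.6% and 28.9% of all tested genes. The endoplasmic reticulum chaperones dnajb11 (-3.45), hsp90b1 (-2.86) and hspa5 (-2.34) fell, and the small heat shock proteins hspb9l (4.10) and hspb15 (3.41) rose. Nuclear genes of oxidative phosphorylation had no direction that held across scalings. They stood at 15 higher and 44 lower of 109 as deposited, 22 and 29 after median-of-ratios rescaling and 30 and 23 after quantile normalization. Within them, isoforms known in mammals from muscle or from low oxygen rose, such as cox4i2, with 105, 118 and 88.8 TPM in larvae, against 4.15, 5.91 and 7.28 TPM in embryos, and cox7a1 (2.56). cox7a2b fell (-2.03). Of the 13 protein genes of the mitochondrial genome 9 were lower and 0 higher (limma). After median-of-ratios rescaling 4 were lower and 0 higher, and after quantile normalization 11 were lower and 0 higher. ATP8 had 8513, 8117 and 6231 TPM in larvae, against 20312, 15485 and 16363 TPM in embryos (log2 change -1.19, standard error 0.17, adjusted P = 0.00045), while COX2 and COX3, from the same genome, were not called. Without larval library 3 COX2 was called higher, at 0.40.

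The most abundant genes overlapped between stages. The 10 genes with the highest mean TPM took 16.7% of the summed TPM in larvae and 11.8% in embryos. Besides pvalb2 the larval 10 included the parvalbumin pvalb1, the actin actc1b and the tropomyosin tpma, which rose by 1.78, 1.75 and 2.06. The embryo 10 included the elongation factor eef1a1l1 (-0.21, not called) and klf2a, a flow-responsive factor. klf2a was the most uneven of them, with 1549, 2635 and 5175 TPM in larvae, against 12412, 4647 and 1069 TPM in embryos, and was not called (log2 change -0.52, standard error 0.84, adjusted P = 0.6). ENSDARG00000111458, which carries no symbol, also differed between libraries of a stage, with 15357, 38714 and 15396 TPM in larvae and 29272, 11681 and 8477 TPM in embryos.

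Zebrafish carry many genes as pairs left by an old genome duplication, and the symbols of many such pairs end in a and b. Pairs were formed here by these letters alone, so not every pair is a duplicate. Among 2231 symbol pairs with both genes tested, 411 had both higher in larvae (18.4%) and 496 both lower (22.2%). In 232 neither was called and in 819 just a single gene was. In 273 pairs, 12.2%, the genes were called in opposite directions, fewer than had both higher or both lower. Over all tested genes 28.9% were higher and 39.6% lower, and the pair shares are to be read against that. In 8 of the 273 pairs both changes were at least 2 in size on the log2 scale. The symbol pair was taken as a pair without a check of sequence or origin, so these shares are not those of duplicates. No test of the shares was made.

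These 8 pairs were picked by their values. The myelin proteolipid genes were the farthest apart, since plp1b had 48.7, 40.0 and 46.7 TPM in larvae, against 0.845, 0.883 and 1.14 TPM in embryos, and plp1a had 2.84, 2.07 and 2.63 TPM in larvae, against 59.8, 66.2 and 63.4 TPM in embryos. The stage that was high for each gene was low for the other. In the purine enzymes pnp4a fell (-2.84) and pnp4b rose (3.27). The same reversal held for dpysl5a (-2.26) and dpysl5b (2.50), of growing axons, and for plppr3a (-2.42) and plppr3b (2.72), likewise neuronal. The lipoprotein receptor genes ldlra (2.02) and ldlrb (-2.40), the chromatin genes ing5a (2.68) and ing5b (-3.04), the adaptors sh2d3cb (2.36) and sh2d3ca (-2.26) and the pyrophosphatases ppa1a (2.86) and ppa1b (-2.13) made up the rest.

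**Figure D4:**
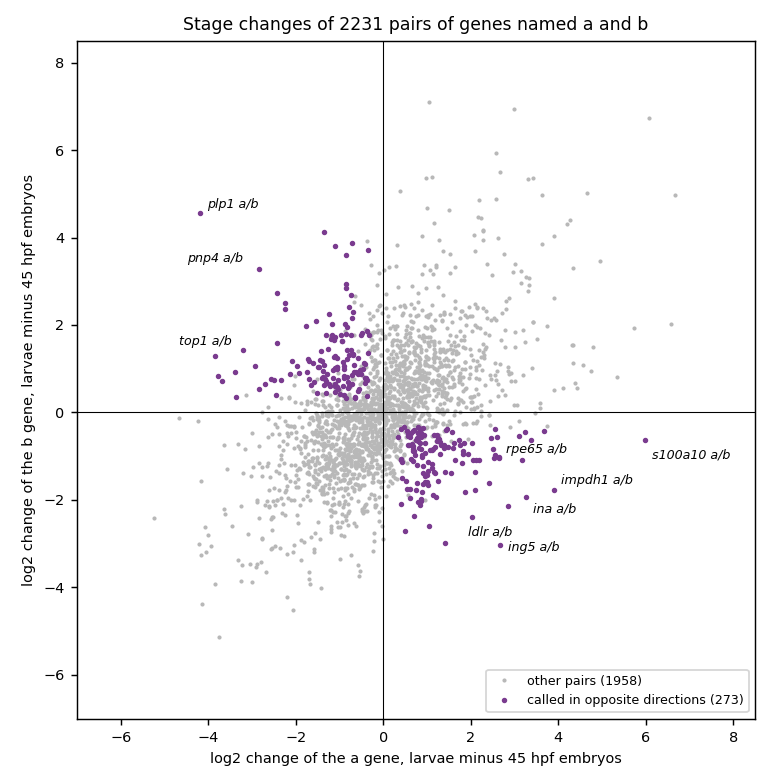
Log2 change, larvae minus embryos at 45 hpf, of the a gene (horizontal) and the b gene (vertical) in 2231 pairs formed by symbol. The 273 pairs called in opposite directions, in purple, lie to the upper left and lower right, with plp1a and plp1b farthest out at -4.20 and 4.56.

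Libraries of the same stage were not alike for every tissue. In larvae, library 2 was lowest for 22 of 25 pancreatic genes, 26 of 30 liver plasma proteins and 33 of 39 collagens. Library 3 was highest for 22 and 29 of the pancreatic and liver genes. Over all tested genes, larval library 2 was lowest for 57.5% and larval library 3 highest for 41.2%. In embryos, library 1 was lowest for 40 of 46 crystallins, 54 of 59 transmitter receptors and 36 of 44 clock genes. It was also lowest for 71.4% of all tested genes, so these counts in part follow a general shift. Against that shift stood its 13 mitochondrial protein genes, all highest in embryo library 1. Whether age within a stage, pool size or handling moved with these differences was not tested.

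**Figure D5:**
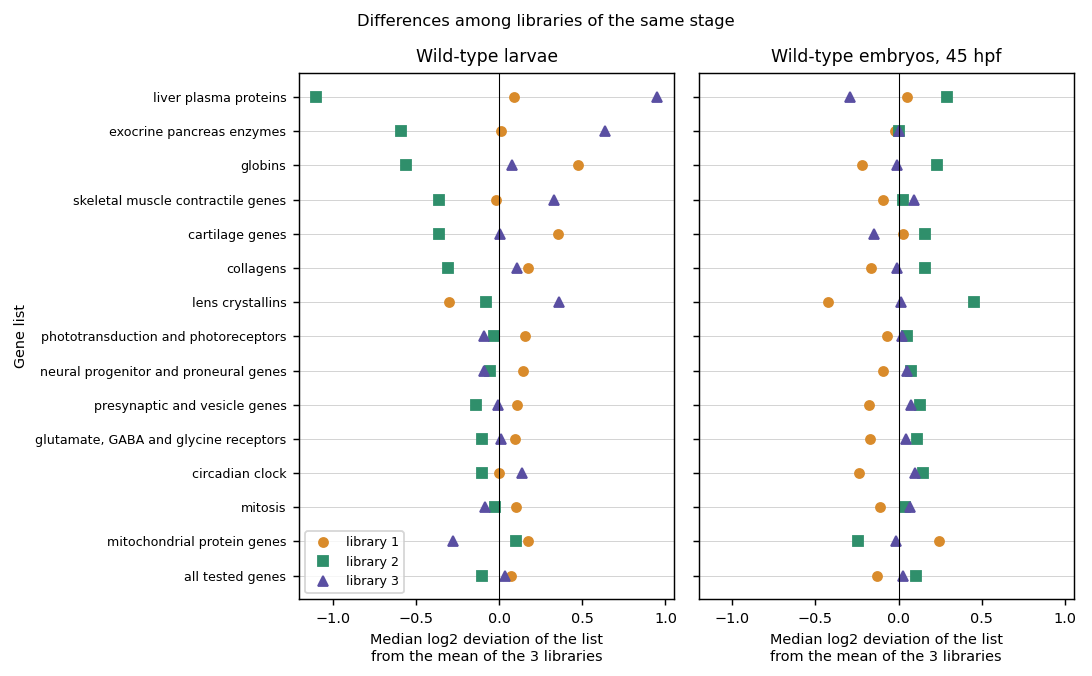
Median deviation of the genes of each list from the mean of the 3 libraries of their stage (log2 scale, horizontal), with wild-type larvae in the left panel and wild-type embryos at 45 hpf in the right. Of the lists drawn, larval libraries 2 and 3 part most for liver plasma proteins, at -1.10 and 0.95, and embryo libraries 1 and 2 most for lens crystallins, at -0.43 and 0.45.

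The stage change was next set against that of the sox10-/- mutants, which lack most pigment cells of crest origin. A difference between the wild-type and the mutant stage change was tested in limma over 12 libraries and 18987 genes. It was above 0 for 41 genes (0.216%) and below 0 for 41 (0.216%), so that at these thresholds most genes were not called to change differently. The counts were unstable. Without larval mutant library 2 they were 800 and 306, and without larval wild-type library 2 108 genes were above 0.

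Of 34 tested genes of the pigment cell list, 7 were among the 41 below 0, compared with 0.216% of all tested genes. Among these, gch2 changed by -4.11 in wild types, against -0.36 in mutants, with embryo values of 75.0, 94.5 and 71.9 TPM in wild types and 2.15, 1.85 and 1.40 TPM in mutants. defbl1, also on the pigment cell list, changed by -2.15 in wild types, against 0.25 in mutants, whose embryo values were 0.0877, 0.0801 and 0 TPM. Both differences passed in all 14 alternatives. On the scale of log2(TPM + 1), genes this low in mutant embryos could not fall as far as in wild types. For them, this limit of the scale and a differing stage change cannot be told apart. Their difference below 0 is thus no separate evidence of another stage change. On the upper side klf9 changed by 4.90 in wild types, against 1.82 in mutants, and rhcga by 6.45 in wild types, against 3.32 in mutants. klf9 passed in all 14 alternatives and rhcga in 8. Of the 41 genes above 0, which were 0.216% of all tested, 7 were lens crystallins. In the wild types alone 46 crystallins were tested. Many are near-identical copies, so these 7 need not count separately, and crygm2d11 among them passed in 6 of 14 alternatives.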

How the data were processed

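The authors trimmed reads (Trimmomatic 0.39), quantified them with kallisto against GRCz11, according to the submitters' processing notes, and deposited TPM per gene from paired-end, poly-A-selected, stranded libraries. Reads per gene cannot be had from TPM, so the reads behind each value are unknown. Of 25896 lines per table, 315 repeat a gene with equal values and were dropped, and IDs were named by the symbols in the tables. The values were added to 1, put on a log2 scale and tested with limma 3.58.1 (R 4.3.3, lmFit and eBayes with a trend) across all tested genes, with Benjamini-Hochberg adjustment. Summaries used Python 3.11.15, pandas 2.3.3 and numpy 2.4.6, and matplotlib 3.10.9 drew the figures.

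Named genes are the 12 largest rises and falls with a symbol and libraries that do not overlap, the 10 most abundant of each stage, members of the gene lists and the 5 largest differences between genotypes in each direction, besides genes said to be picked by their values. A few genes the rule names are not reported here. The members and the lists were chosen with earlier results of these data known. List members were matched by symbol or synonym. Left out were 9 matched genes whose symbol in the tables differed from the listed one in its first 3 letters. So were 14 kinases and binding partners caught by name patterns. The labels call the replicates biological, and p-values measure the spread between these pools alone. The 6 columns labelled 7 dpf repeat others and were not used. The fit was tested on simulated data with 200 of 18424 genes changed. Of these 0% were recovered at a log2 change of 0.5, 55% at 1 and 86% at 2. Unchanged genes made up 7.56% of the calls at 1 and 7.53% at 2. Far fewer genes were changed there than the 68.4% called here. The adjustment of P depends on that share, so the simulated rates do not carry over to this comparison. Alternatives covered the pseudocount, filters, scaling, thresholds, the replicate block and leaving out each library.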

Additional observations from a re-analysis of the deposited data

Results flagged for a closer look

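The stage change of 10 genes differed between wild types and sox10 mutants by the limma test of the difference itself, the 5 largest in each direction. Below 0, the value for LOC100330864 was -4.10 (adjusted P = 0.0001), with a change of -5.06 in wild types, against -0.96 in mutants. The value for gch2 was -3.75 (adjusted P = 0.0001), with -4.11 in wild types, against -0.36 in mutants. For si:dkey-251i10.2 it was -3.50 (adjusted P = 0.00011), with -3.15 in wild types, against 0.35 in mutants. For defbl1 it was -2.40 (adjusted P = 0.0006), with -2.15 in wild types, against 0.25 in mutants. These 4 genes passed in all 14 alternatives. They were low in mutants at both stages, where log2(TPM + 1) could not fall as far as in wild types. The fifth, zgc:174353, had -2.51 (adjusted P = 0.036), with -0.05 in wild types, against 2.46 in mutants, and passed in 5 of 14.

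Above 0, klf9 had a difference of 3.08 (adjusted P = 0.004) and passed in all 14 alternatives. Its larval values were 33.2, 22.8 and 59.3 TPM in wild types, against 3.62, 3.32 and 2.47 TPM in mutants, and its embryo values were all under 0.3 TPM. rhcga had 3.13 (adjusted P = 0.015), with larval values of 79.1, 157 and 146 TPM in wild types, against 12.1, 31.0 and 19.0 TPM in mutants, and passed in 8 of 14. The lens crystallin crygm2d11 had 3.28 (adjusted P = 0.034) and passed in 6 of 14. si:dkey-57a22.15 had 3.75 (adjusted P = 0.034) and passed in 4 of 14. ENSDARG00000042872, without a symbol, had 3.55 (adjusted P = 0.045) and passed in 3 of 14, with 2.28 in wild types, against -1.27 in mutants.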

How the results depend on the processing

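There were 3 libraries per stage, and the reads per gene are unknown. With each stage in a table of its own, stage and batch cannot be told apart, and small changes depend on the scaling. The count of genes higher in larvae was 3172 among genes with a mean of at least 5 TPM and 3036 at a minimum change of 2-fold. The count lower was 4084 at 2-fold. Of the listed genes under the filter, 142 had libraries that did not overlap between stages, and 153 had after median-of-ratios rescaling, an alternative chosen after seeing the data. At a floor of 0.1 TPM, 30 genes were switched on and 2 off. Leaving out 1 library in turn gave 4729 to 5768 genes higher and 6301 to 7440 lower. No gene called higher or lower was called in the other direction in any of the 15 alternatives that keep the thresholds. Among 266 named genes, 17 changed their side of the threshold in at least 1 alternative and 0 reversed. Of 1680 alternative values of list counts, 121 moved by over 1.5 times, 40 of them under the filter at a mean of 5 TPM.

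The difference between genotypes was the least stable. It was above 0 for 65 genes and below 0 for 119 after median-of-ratios rescaling, and for 6 to 800 and 15 to 306 genes when 1 library was left out. With a replicate block these were 15 and 18. Same-numbered larval and embryo libraries deviated together at r = 0.11, -0.29 and 0.01 across genes. Differently numbered ones did so at -0.26 to 0.36. Shifts of whole libraries enter these values, so they cannot decide whether same-numbered pools are related. The numbers were not taken as pairs. A replicate block in the wild types gave 4990 genes higher and 6809 lower.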

Other observations

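Several further lists held genes called in either direction. Of all tested genes 28.9% were higher in larvae and 39.6% lower, and some of these lists lay near those shares. Of 21 tested kidney genes 7 were higher (33.3%) and 6 lower (28.6%) in larvae, and 8 were not called. Their median log2 change was 0.03. The peptidase enpep (2.05) and the salt transporter slc12a3 (1.31) rose, and pax2a (-1.36) and osr1 (-0.83) fell. These are examples and do not stand for the list. Of 17 myogenic regulators 3 were higher and 9 lower. In ribosome biogenesis 12 of 53 were higher (22.6%) and 23 lower (43.4%). The helicase ddx21 of this list had 579.7, 593 and 581 TPM in larvae, against 85.7, 85.2 and 96.1 TPM in embryos. In the swim bladder list 4 of 7 were higher and 2 lower, among them the surfactant gene sftpbb (1.78) and the smooth muscle actin acta2 (4.27), which is not limited to that organ. Of 15 germ cell genes 12 were under the filter. Of 15 tested genes of the thyroid axis 5 were higher (33.3%) and 6 lower (40%). Of 7 of the hatching gland 3 were higher and 3 lower.

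Of the 149 genes switched on, 48 were in a list and 9 had no symbol. Outside the lists, and picked after their values were seen, stood genes of the retina. The calcium-binding genes cabp5a and cabp5b and nyx, which is needed by bipolar cells in mammals, were under 0.5 TPM in every embryo library. Their log2 changes were 3.43, 5.36 and 3.76.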
